A study of Mus musculus with 16 samples.

Results

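The genes described here encode the subunits of the oxidative phosphorylation system, the 4 respiratory chain complexes and the ATP synthase. They were chosen by name. Protein-coding genes were taken whose symbol begins with Nduf (assembly factors named Ndufaf excepted), Uqcr or Atp5, together with Sdha to Sdhd, Cyc1, the genes from Cox4 to Cox8, and the 13 protein genes of the mitochondrial genome. The choice gave 104 of the 54193 annotated genes in the files, 91 of them nuclear and 13 mitochondrial. Of these, 96 had enough counts to be tested (83 nuclear and 13 mitochondrial), among 14838 genes tested in all.

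RNA was sequenced from cultured brain microvascular endothelial cells of the mouse (mBMEC), which line the small vessels of the brain. The cells came from 8 to 10 week old mice with floxed Pdcd10 (Ccm3) alleles and the endothelial Cdh5(PAC)-CreERT2 transgene on a C57BL/6J background. All 6 groups carried both the floxed alleles and the transgene. WT cells (n = 3) received no 4-hydroxytamoxifen (4-OHT), and KO cells (n = 3) received 4-OHT, which activates the Cre. Exposure to 4-OHT and the genotype label therefore cannot be told apart. WT+P (n = 2) and KO+P (n = 3) were treated with 10 µM propranolol, a β-blocker, for 24 h. WT+R (n = 2) and KO+R (n = 3) were treated with 100 nM rapamycin, an mTORC1 inhibitor, also for 24 h. Cells of several brains, from male and female mice, were pooled to start each culture, so a replicate is a culture and not an animal.

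In the inner mitochondrial membrane, complexes I (NADH dehydrogenase), III (cytochrome bc1) and IV (cytochrome c oxidase) pass electrons on to oxygen and pump protons, complex II (succinate dehydrogenase) feeds in electrons without pumping, and complex V (ATP synthase) uses the proton gradient to make ATP. Complex II is built from nuclear gene products alone, whereas the other complexes combine nuclear and mitochondrial subunits. The mitochondrial genes are transcribed as long RNAs that cover many genes and are then cut, so their levels are not independent of each other. Endothelial cells are known for relying largely on glycolysis, and mTORC1 is known to act on the translation of messages for mitochondrial proteins.

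The libraries held 18.83 to 26.2 M counts. Endothelial markers summed to 9556 to 12880 TPM (a read share corrected for transcript length) in WT, 9982 to 11460 in KO, 6871 to 10160 in KO+P, 8123 to 10000 in KO+R, 6857 to 9125 in WT+P and 7861 to 8505 in WT+R, so WT+P and WT+R did not overlap with WT. Of the other cell types, the 10 mural markers summed to 62.9 to 228 TPM in KO, 91.4 to 916 in WT, 114 to 471 in KO+P, 253 to 377 in KO+R, 435 to 1548 in WT+P and 1388 to 2584 in WT+R. Over all libraries, the sums were 2.03 to 60.1 TPM for fibroblast markers (5 of 6 tested, Lum at 0 throughout), 16.7 to 60.7 for astrocyte markers (2 of 6 tested), 1.74 to 24.6 for neuron markers (2 of 6 tested), and at most 2.54 for microglia and macrophage markers (3 of 7 tested, P2ry12 at 0 throughout) and 1.10 for oligodendrocyte markers (1 of 6 tested). One library went against its label. Pdcd10 was at 11.5 CPM (the library's counts scaled to a common size with TMM factors, not corrected for length) in the library labelled WT replicate 1, against 31.2 and 47.0 CPM in the other WT libraries and 9.72 to 11.0 CPM in KO. The medians and the counts of called members that rest on WT, and the genes named for them where this was computed, are therefore given with and without that library; counts of groups without overlap, and the other genes, are given with it alone. In bulk RNA, fewer cells of a type and less RNA per cell cannot be told apart. Libraries with the same replicate number deviated together from their group means, so each result is also given with the replicate number as a block in the model where this changes it.

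The mitochondrial messages were among the most abundant of the system. On the TPM scale, which corrects for length, mt-Co1 (the catalytic subunit I of complex IV) was the highest of all, with 8541 ± 2190 TPM (SD, n = 3) in WT. Counting each gene alone, it was followed by the complex I genes mt-Nd4, with 2870 ± 401 TPM, mt-Nd6, with 2645 ± 557 TPM, and mt-Nd1, with 2411 ± 309.5 TPM. These neighbours did not differ beyond their spread. A large share of the signal of mt-Co2, mt-Atp6 and mt-Co3 was placed on nuclear copies, as described below. Their place in this order is therefore uncertain. The libraries carried no strand, so the level of mt-Nd6 can include RNA of the opposite strand. Among nuclear genes, Cox6a1 (complex IV) led with 2140 ± 105 TPM, followed by Atp5f1b, the catalytic β subunit of ATP synthase, with 1822 ± 219.8 TPM. The median WT level of the tested nuclear genes was 213 TPM over 38 genes in complex I, 169.9 TPM over 4 genes in complex II, 349 TPM over 9 genes in complex III, 443 TPM over 14 genes in complex IV and 367 TPM over 18 genes in complex V.

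For each pair of tissue isoforms, the broadly expressed member held nearly all counts. Cox4i1 had 4791 to 9553 counts per library, while its lung and hypoxia isoform Cox4i2 had 0 to 9. Cox6a1 had 7062 to 11560 counts, and the heart and muscle isoform Cox6a2 was at 0 in 12 of the 16 libraries. Cox8a had 4066 to 5756 counts, and its muscle isoform Cox8b had 0 to 2. The muscle isoform Cox7a1 reached 21 counts at most, and Cox6b2, the testis isoform, 52. Ndufa4l2, a hypoxia-induced relative of Ndufa4, had 0 to 7 counts. The genes that could not be tested were Ndufa4l2, Cox4i2, Cox8b, Ndufb11b, Cox5b-ps, Cox7b2, Cox8c and a second gene entry of Atp5po, which had 9 counts or fewer in every library.

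Part of the mitochondrial signal was assigned to near-identical copies of mitochondrial DNA in the nuclear genome. A block on chromosome 1 (GRCm39, minus strand) holds 5 annotated copies with counts, and their sequences, from the GENCODE transcripts, are shown because they decide which mitochondrial values can be read. Gm28661 (chr1:24653966-24654646) was identical to mt-Co2 (chrM:7013-7696) over 681 bases, Atp6-ps (chr1:24653055-24653732) to mt-Atp6 (chrM:7927-8607) over 678 bases, and Gm28437 (chr1:24652270-24653052) to mt-Co3 (chrM:8607-9390) over 783 bases. The last bases of the coding strand are written 5′ to 3′, with capitals for the bases that the copy lacks.
mt-Co2: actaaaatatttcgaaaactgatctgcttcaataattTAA
Gm28661: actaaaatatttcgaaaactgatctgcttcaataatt
mt-Atp6: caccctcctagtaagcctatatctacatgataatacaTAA
Atp6-ps: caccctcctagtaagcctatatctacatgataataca
mt-Co3: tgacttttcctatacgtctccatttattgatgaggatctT
Gm28437: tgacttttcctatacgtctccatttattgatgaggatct

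Gm28438 (chr1:24651856-24652200) differed from mt-Nd3 (chrM:9459-9806) by T3C over 345 bases, counted from 1 at the 5′ end, with the base of mt-Nd3 first. The first 40 bases are shown with this position in capitals.
mt-Nd3: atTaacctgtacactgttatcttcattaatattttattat
Gm28438: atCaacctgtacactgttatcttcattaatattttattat

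The copies took a large and uneven share of the counts. Gm28661 held 83.3 to 99.3% of the counts of its pair by library, Atp6-ps 52.1 to 89.2% and Gm28437 40.3 to 75.9%. The KO+P replicate 2 library had 202 counts on mt-Co2, while the other libraries reached up to 5258. Gm28438 held 0 to 31.5% of its pair and Gm10222, the copy of mt-Nd4l, 0 to 16.1%. The levels of mt-Co2, mt-Atp6, mt-Co3 and mt-Nd3 are therefore uncertain, and for these genes the change is also given with the counts of the copy added. mt-Nd1, mt-Nd2, mt-Nd6, mt-Cytb and mt-Atp8 had no such copy among the annotated transcripts, the only sequences searched. The copies of mt-Co1, mt-Nd4 and mt-Nd5 held under 0.01% of the counts of their pairs. mt-Atp8 shares bases with mt-Atp6, so its level can also depend on how those reads were assigned.

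**Figure D1:**
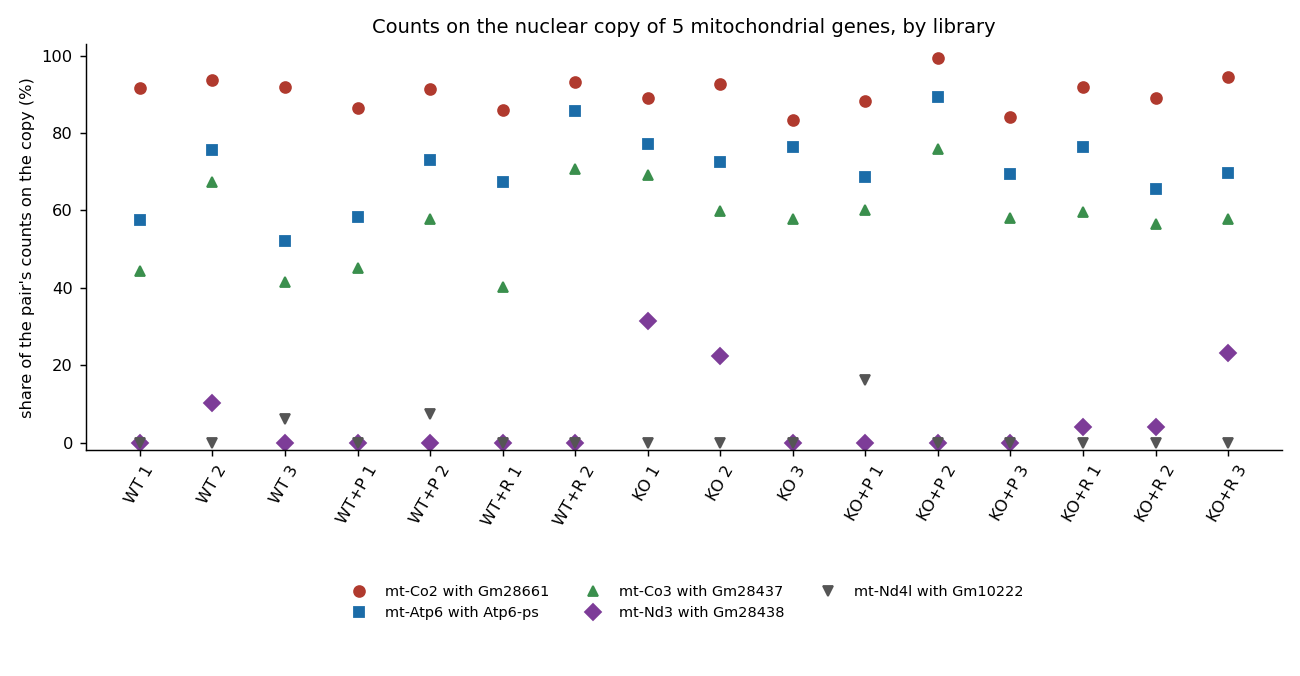
Share of the counts of each pair (vertical axis, %) that the deposited files place on the nuclear copy instead of the mitochondrial gene, for each of the 16 libraries (horizontal axis). The copy of mt-Co2 held 83.3 to 99.3% in every library, and the copy of mt-Co3 ranged from 40.3 to 75.9%.

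The question of the first comparison was whether loss of Ccm3 changed the messages of the system. Most mitochondrial messages had higher values in KO than in WT, while nuclear messages barely differed, but no single gene passed the test. With edgeR's quasi-likelihood test and Benjamini-Hochberg adjustment, 0 of the 96 genes had an adjusted p under 0.05 in KO vs WT, where 0.00674% of all tested genes did. Pdcd10, the gene deleted in KO, was not called either. Its log2 fold change was -1.56 (adjusted p = 0.42 with edgeR, 0.119 with the block). A member that was not called can therefore not be read as unchanged. At an unadjusted p under 0.05, the count was 5 of 96 (mt-Nd1, mt-Nd2, mt-Nd4, mt-Nd5 and mt-Nd6, all higher in KO), against 6.07% of all tested genes. DESeq2 also called 0. The median log2 fold change was 0.48 over the 13 mitochondrial genes, -0.08 over the 83 nuclear genes and -0.01 over all tested genes.

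The summed level of the 13 mitochondrial genes was 14471, 17725 and 11947 CPM in WT and 22324, 22542 and 19907 CPM in KO, replicates 1 to 3. The groups did not overlap. The summed nuclear level was 9752, 8587 and 8328 CPM in WT and 9239, 7605 and 8255 CPM in KO, with overlap. The ratio of the mitochondrial to the nuclear sum was 1.44 to 2.06 in WT and 2.41 to 2.96 in KO, and within the same replicate number its log2 was higher in KO by 0.70, 0.52 and 0.75. mt-Co1 made up 44.6 to 51.8% of the mitochondrial counts in WT and 48.8 to 55.5% in KO. Without mt-Co1, the sums were 6619 to 8537 CPM in WT and 9337 to 11423 CPM in KO. With the copies added, the sums were 13955 to 20422 CPM in WT and 22686 to 25529 CPM in KO. The library labelled WT replicate 1, with Pdcd10 at the KO level, had a mitochondrial sum between those of the other WT libraries.

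**Figure D2:**
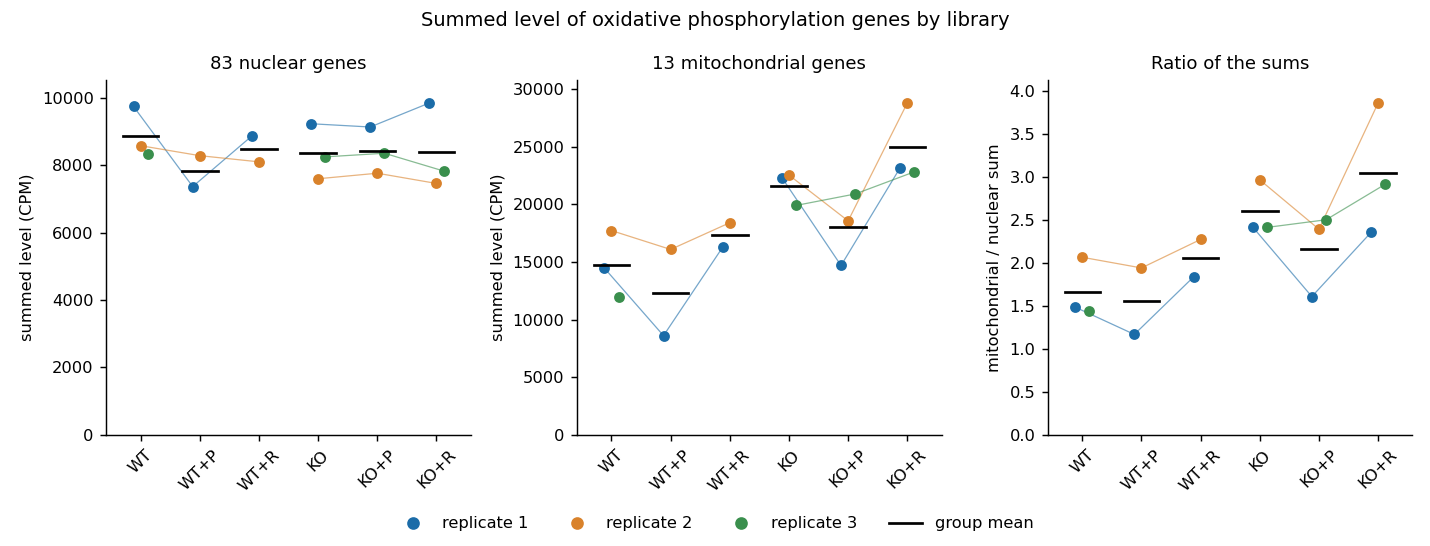
Summed level in CPM of the 83 tested nuclear genes (left) and the 13 mitochondrial genes (middle), and the ratio of both sums (right), in each library by group. Points are libraries coloured by replicate number, thin lines join libraries of the same number within a genotype, and black bars are group means. The mitochondrial sum was 11947 to 17725 CPM in WT and 19907 to 22542 CPM in KO.

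The 7 mitochondrial genes of complex I, which form part of its membrane arm, had a median log2 fold change of 0.50. mt-Nd2 had the smallest p-value of all members. It was at 702, 787 and 568 CPM in WT and 1221, 908 and 779 CPM in KO. One KO value lay below the highest WT value, so the groups overlapped. The log2 fold change was 0.50 (SE 0.18, adjusted p = 0.626 with edgeR). The replicate block gave 0.50 with an edgeR adjusted p of 0.173, and DESeq2 with the block gave an adjusted p of 0.0429. DESeq2 with the block called 566 of 14838 genes in this comparison. mt-Nd6, the member encoded on the opposite strand of the mitochondrial genome, was at 481, 456 and 281 CPM in WT and 706, 601 and 493 CPM in KO. The groups did not overlap, with a log2 fold change of 0.56 (SE 0.23, adjusted p = 0.732 with edgeR). By annotation, mt-Nd6 shares 2.7% of its exonic bases with mt-Nd5. The libraries carried no strand, so RNA of either strand over mt-Nd6 was counted together. Its change can therefore not be assigned to its own strand. mt-Nd5, mt-Nd4, mt-Nd1 and mt-Nd4l had log2 fold changes of 0.57, 0.48, 0.37 and 0.56, and their groups did not overlap either. Non-overlap with higher values in KO was seen for 8 of the 96 genes (Cox7a1 and 7 mitochondrial genes), against 6.69% of all tested genes.

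In complex III, mt-Cytb (cytochrome b) was at 909.7, 1229 and 985 CPM in WT and 1437, 1246 and 1352 CPM in KO, a log2 fold change of 0.37 (SE 0.17). The groups did not overlap. In complex IV, mt-Co1 was at 6598, 9187 and 5328 CPM in WT and 10901, 12515 and 10570 CPM in KO. Here too every KO library lay above every WT library, with a log2 fold change of 0.69 (SE 0.35, adjusted p = 0.894 with edgeR). The genes with copies changed sign or size when the copy was added. mt-Co2 went from 0.86 (SE 0.73) to 0.19 (SE 0.18), mt-Co3 from -0.03 to 0.33 (SE 0.14), mt-Atp6, of ATP synthase, from -0.34 to 0.29 (SE 0.14), and mt-Nd3 from -0.26 to -0.03. mt-Atp8, the other mitochondrial gene of ATP synthase, had a log2 fold change of 0.27 (SE 0.21) and shares 21.1% of its bases with mt-Atp6. With the copies added, 12 of the 13 mitochondrial genes had values above 0 in place of 10, with a median of 0.37.

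**Figure D3:**
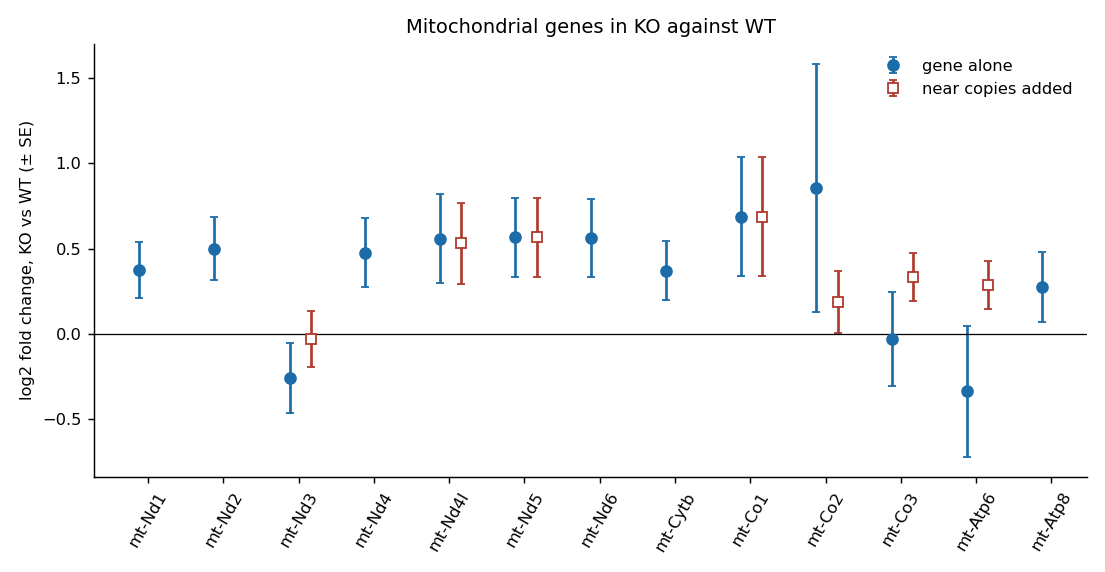
Log2 fold change in KO against WT (vertical axis, with SE from the edgeR model) for the 13 mitochondrial genes (horizontal axis). Filled circles use the counts of the gene alone and open squares the counts with near copies added. mt-Co3 moved from -0.03 to 0.33 and mt-Atp6 from -0.34 to 0.29, while mt-Nd4l and mt-Co1 hardly moved.

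The nuclear genes of each complex had small values in the other direction. In complex I, 35 of 38 were below 0, with a median log2 fold change of -0.10, against -0.10 in complexes II and V, -0.05 in complex III and -0.03 in complex IV. Among the core subunits of all complexes, values ran from -0.31 for Cyc1, the cytochrome c1 of complex III, to 0.08 for Uqcrfs1, its Rieske iron-sulfur protein. Sdha, the flavoprotein of complex II, was at 259, 258 and 258 CPM in WT and 241, 235 and 223 CPM in KO. These groups did not overlap, as for Atp5f1b and Ndufb4, which makes 3 of 96 genes lower in KO without overlap against 6.5% of all tested genes. Without the library labelled WT replicate 1, the nuclear median was -0.01, the mitochondrial median 0.51 and the count of called members 0, with log2 fold changes of 0.51 for mt-Nd2, 0.70 for mt-Nd6, 0.27 for mt-Cytb, 0.64 for mt-Co1 and 0.056 for mt-Co3. The nuclear median was -0.12 and -0.13 without WT replicate 2 or 3, and -0.16 and -0.01 without KO replicate 1 or 2. Leaving out single libraries in turn gave a mitochondrial median from 0.34 to 0.60. The 15 nuclear control factors, 36 genes of mitochondrial DNA transcription and replication, assembly factors, coenzyme Q genes and TCA cycle genes, lists chosen with earlier results known, had 0 called genes in KO vs WT. Tfam, which packages and transcribes mitochondrial DNA, was at 21.3, 21.4 and 19.7 CPM in WT and 24.0, 20.1 and 19.9 CPM in KO, and Polrmt, the mitochondrial RNA polymerase, was at 31.6, 29.2 and 34.0 CPM in WT and 30.3, 28.4 and 35.4 CPM in KO. The groups overlapped for both. The coactivator Ppargc1a stayed at or under 0.88 CPM in all 16 libraries.

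**Figure D4:**
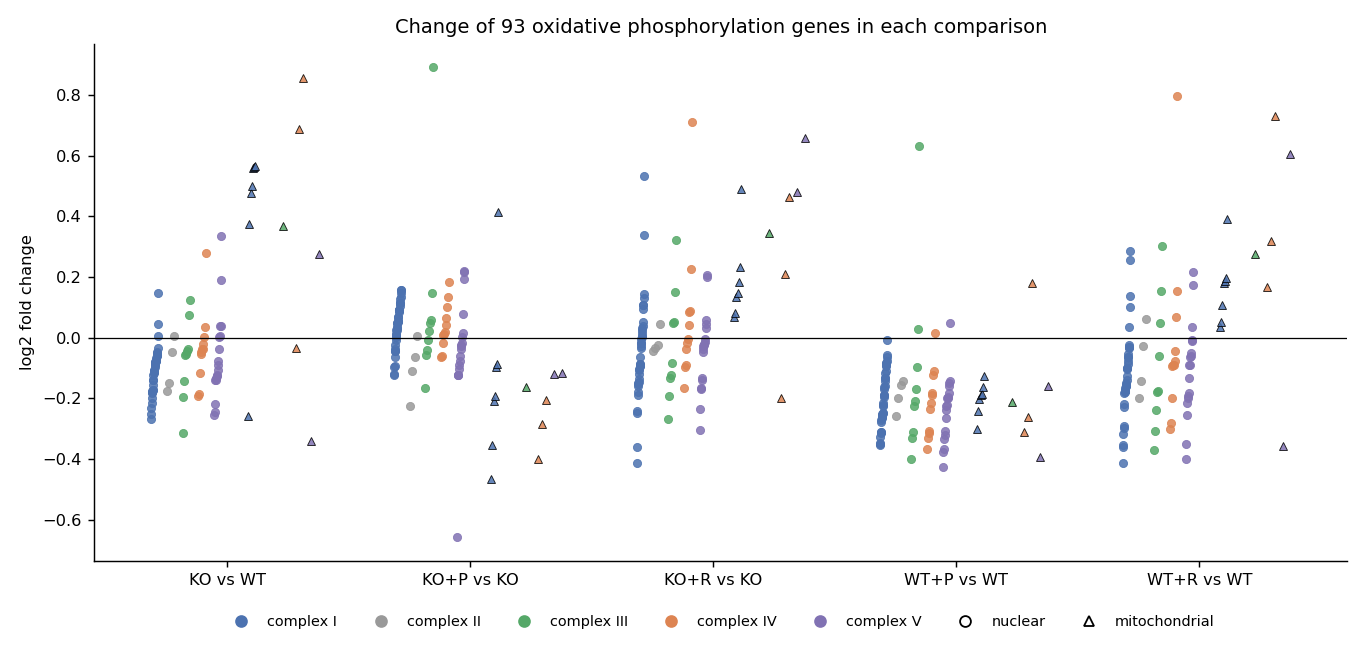
Log2 fold change (vertical axis) of 93 of the 96 tested genes in 5 comparisons (horizontal axis), by complex (colour) and genome (circles nuclear, triangles mitochondrial). Cox6a2, Cox6b2 and Cox7a1, with few counts, are not drawn. The median of the mitochondrial genes was 0.48 in KO vs WT and -0.19 in KO+P vs KO.

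The genotypes were also compared under each drug, comparisons added after values had been seen. The mitochondrial median was 0.42 in KO+P vs WT+P and 0.45 in KO+R vs WT+R, with 12 of 13 genes above 0 in both, and the nuclear median was 0.15 and -0.01. In KO+P vs WT+P, the mitochondrial median was 0.25 and the nuclear median 0.029 without the WT+P replicate 1 library. The nuclear median there was 0.26 without WT+P replicate 2 and 0.054 without KO+P replicate 1. In KO+R vs WT+R, the nuclear median ran from -0.15 without KO+R replicate 1 to 0.091 without KO+R replicate 2. With edgeR, 0 of 96 genes were called in either, as were 0% of all tested genes. At an unadjusted p under 0.05, 2 genes (mt-Nd1 and mt-Nd2) passed in KO+P vs WT+P, against 6.19% of all tested genes, and 4 (mt-Nd1, mt-Nd2, mt-Nd4 and mt-Cytb) in KO+R vs WT+R, against 5.72%. mt-Nd2 was at 541 and 665 CPM in WT+P against 878, 887 and 956 CPM in KO+P. It was at 711 and 693 CPM in WT+R against 1105, 1115 and 831 CPM in KO+R. Neither pair of groups overlapped. DESeq2 with the replicate block called mt-Nd2 in both comparisons (adjusted p = 0.00858 and 0.0227) and mt-Co1 in the first. That fit called 405 and 375 of 14838 genes.

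Propranolol was tested in KO and in WT cells. Mitochondrial messages were mostly at lower values after treatment, Uqcrq stood at higher values in both genotypes, and no gene passed the test. With edgeR, 0 of 96 genes were called in KO+P vs KO and 0 of 96 in WT+P vs WT, where 0.00674% of all tested genes were called in each. At an unadjusted p under 0.05, 3 genes passed in KO (Atp5mc2, Cox6a2 and Uqcrq), against 12.6% of all tested genes, and 5 in WT (among them Atp5mf, Cox6a2, Cox7b and Uqcrq), against 9.87%. DESeq2 without the block called 0 in both. The median mitochondrial log2 fold change was -0.19 in KO and -0.20 in WT, with 12 of 13 genes below 0 in both, and in WT it was -0.21 without the library labelled WT replicate 1, -0.075 without WT replicate 2, 0.0074 without WT+P replicate 1 and -0.35 without WT+P replicate 2. In KO, leaving out KO+P replicate 1, 2 or 3 in turn gave -0.10, -0.12 and -0.34. KO+P vs KO shares its KO libraries with KO vs WT, and WT+P vs WT its WT libraries, so these comparisons are not independent.

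Uqcrq, a small subunit of complex III that contacts cytochrome b, had the largest value in both genotypes among genes with more than 28 counts. It was at 154, 143 and 141 CPM in KO and 401, 246 and 164 CPM in KO+P. All treated libraries lay above all untreated ones, with a log2 fold change of 0.89 (SE 0.26, adjusted p = 0.287 with edgeR, 0.0792 with the block). DESeq2 with the block gave an adjusted p of 0.00555, in a fit that called 1439 of 14838 genes in KO+P vs KO. In WT it was at 139, 147 and 115 CPM, and at 233 and 181 CPM in WT+P. Again the groups did not overlap, with a log2 fold change of 0.63 (SE 0.28, adjusted p = 0.496 with edgeR). Within the same replicate number the log2 change was 1.38, 0.78 and 0.22 in KO and 0.74 and 0.30 in WT. Without the KO+P replicate 3 library Uqcrq was called in edgeR (log2 fold change 1.15, adjusted p = 0.0266), and without KO+P replicate 1 its log2 fold change was 0.49. Uqcrq lies on chromosome 11 (chr11:53318749-53322047, minus strand, GRCm39). It was the only complex III gene past 1.5-fold in KO+P vs KO or WT+P vs WT.

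Atp5mc2 encodes the c subunit of the rotor ring of ATP synthase. It was at 21.8, 15.0 and 21.3 CPM in KO and 11.4, 10.1 and 15.3 CPM in KO+P, a log2 fold change of -0.66 (SE 0.21, adjusted p = 0.314 with edgeR). Its transcript is shared with Gm70834, a long non-coding RNA gene on chromosome 7 identical to it over 649 bases, which held 63607 counts against 6027 on Atp5mc2 over all libraries. With the counts of the copy added, the log2 fold change was 0.04. Cox6a2 had 28, 7 and 0 counts in KO+P and 21 and 3 in WT+P, and 0 in the other 11 libraries. Its values came mainly from the replicate 1 libraries. The 38 nuclear complex I genes were all below 0 in WT+P vs WT (median log2 fold change -0.21), as were 76 of the 83 nuclear genes, against 28 of 38 above 0 in KO+P vs KO (median 0.05). Non-overlap with lower values was seen for 24 of 96 genes in WT+P, against 10.3% of all tested genes, and for 2 of 96 in KO+P, against 9.11%. Of these, Atp5mf of ATP synthase was at 119, 98.3 and 97.6 CPM in WT and 69.7 and 86.4 CPM in WT+P (log2 fold change -0.43, SE 0.17). Cox7b of complex IV was at 79.9, 67.6 and 73.5 CPM in WT and 49.3 and 65.03 CPM in WT+P. The WT+P replicate 1 library had a nuclear sum of 7372 CPM, and the change within the same replicate number was -0.40 for replicate 1 and -0.05 for replicate 2. The summed mural markers were at 435 to 1548 TPM in WT+P and 91.4 to 916 TPM in WT, and their part in the result was not tested. The endothelial markers were lower in sum in WT+P than in WT, as given above, and their part was not tested either. Without the library labelled WT replicate 1 the nuclear median was -0.14, and the log2 fold changes of Atp5mf and Cox7b were -0.34 and -0.31. The nuclear median was -0.095 without WT+P replicate 1 and -0.31 without WT+P replicate 2. The interaction of propranolol with the genotype was above 0 for 77 of the 83 nuclear genes (median log2 0.21). This median was 0.13 without the library labelled WT replicate 1, and ran from 0.12 to 0.33 when single libraries were left out. In the interaction 0 of 96 genes were called, as were 0% of all tested genes. An unadjusted p under 0.05 was found for 1 gene (mt-Nd3, a gene with a copy), against 0.721% of all tested genes.

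Rapamycin had more effect on the transcriptome as a whole, and few members of the system were called in any fit. With edgeR, 0 of 96 genes were called in KO+R vs KO, against 1.7% of all tested genes, and 0 of 96 in WT+R vs WT, against 1.48%. Of all tested genes, 0.849% were called higher and 0.849% lower in KO+R, and 0.721% and 0.762% in WT+R. With a fold over 1.5 asked as well, 1.51% were called in KO+R and 1.4% in WT+R (0.647% higher), and again 0 of the 96. At an unadjusted p under 0.05, 4 genes passed in KO (Cox7a2l, Ndufa6, mt-Atp8 and mt-Nd3), against 12.5% of all tested genes, and 4 in WT (Cox7a2l, Atp5mf, Ndufc1 and mt-Atp8), against 12.6%. With the replicate block, 3 genes were called in KO (Cox7a2l and Ndufa6 higher, Ndufs8 lower), against 6.94% of all tested genes, and 3 in WT (Cox7a2l higher, Ndufs8 and Uqcrb lower), against 5.78%. Both shares lay below those of all tested genes.

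Cox7a2l, a relative of the complex IV subunit VIIa that takes part in joining complexes III and IV into supercomplexes, was the member with the smallest p-value in both genotypes. It was at 176, 137 and 138 CPM in KO and 293, 219 and 226 CPM in KO+R. All treated libraries lay above all untreated ones, with a log2 fold change of 0.71 (SE 0.17, adjusted p = 0.0635 with edgeR, 0.00662 with the block). In WT it was at 142, 135 and 95.1 CPM, and at 216 and 214 CPM in WT+R. The groups did not overlap, with a log2 fold change of 0.80 (SE 0.19, adjusted p = 0.0564 with edgeR, 0.0110 with the block). DESeq2 gave an adjusted p of 0.00354 in KO and 0.00405 in WT, where it called 632 and 679 of 14838 genes. Within the same replicate number, the log2 change was 0.73, 0.68 and 0.71 in KO and 0.61 and 0.67 in WT. Without the library labelled WT replicate 1, the value in WT was 0.91 (adjusted p = 0.0793 with edgeR). The interaction with the genotype was not called. Propranolol left it at 193, 145 and 157 CPM in KO and 124 and 126 CPM in WT, which overlapped with the untreated groups. Cox7a2l lies on chromosome 17 (chr17:83765970-83824759, minus strand, GRCm39), and 7.47% of its exonic bases overlap Eml4 and Gm66623.

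Ndufa6, an accessory subunit of complex I, was at 58.1, 36.9 and 43.7 CPM in KO and 84.2, 55.03 and 61.5 CPM in KO+R. The groups overlapped, since replicate 1 was the highest in both, but within the same replicate number the log2 change was 0.54, 0.58 and 0.49. The log2 fold change was 0.53 (adjusted p = 0.335 with edgeR, 0.00711 with the block). In WT the changes within replicate numbers were 0.10 and 0.30. Ndufa6 shares 25.6% of its exonic bases with Smdt1 on the other strand, whose reads cannot be told apart without strand. Ndufs8, which carries iron-sulfur clusters in the core of complex I, was at 79.2, 51.5 and 63.2 CPM in KO and 63.5, 39.2 and 42.9 CPM in KO+R, and at 88.3, 57.0 and 59.0 CPM in WT and 59.5 and 42.8 CPM in WT+R. The groups overlapped, while every replicate number gave a lower value with rapamycin, by 0.32, 0.39 and 0.56 in KO and 0.57 and 0.41 in WT on the log2 scale. With the block, its log2 fold change was -0.42 (adjusted p = 0.0299 with edgeR) in KO and -0.47 (adjusted p = 0.0400 with edgeR) in WT. Uqcrb, a subunit of complex III close to the quinone site, was at 66.7, 52.5 and 51.8 CPM in WT and 51.3 and 36.9 CPM in WT+R, with a log2 fold change of -0.43 with the block (adjusted p = 0.0309 with edgeR). In KO+R it was at 56.5, 39.8 and 42.1 CPM against 69.2, 47.0 and 50.4 CPM. Ndufa4, grouped here with complex I by its name and known as a complex IV subunit, was lower by 0.33, 0.39 and 0.36 in KO and 0.37 and 0.42 in WT within replicate numbers. DESeq2 with the block called it in KO+R vs KO, where that fit called 1763 of 14838 genes. Without the library labelled WT replicate 1, the block fit called Cox7a2l alone in WT+R vs WT.

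**Figure D5:**
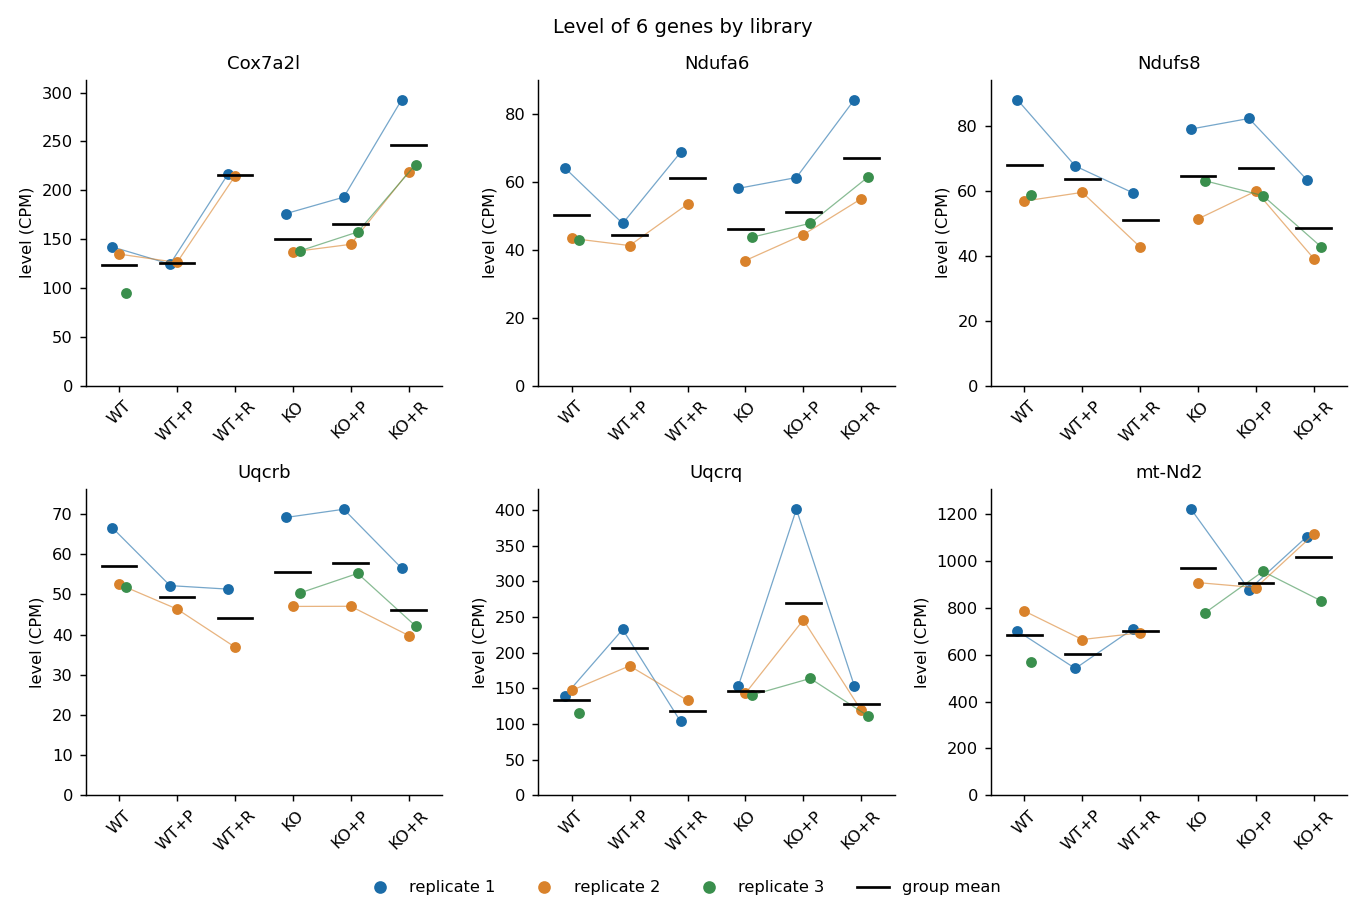
Level in CPM (vertical axes) of Cox7a2l, Ndufa6, Ndufs8, Uqcrb, Uqcrq and mt-Nd2 in each library by group (horizontal axes). Points are libraries coloured by replicate number, thin lines join the same number within a genotype, and black bars are group means. Cox7a2l was at 214 to 293 CPM in the 5 rapamycin libraries and at 193 CPM or below in the others, and Uqcrq was highest in KO+P.

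The mitochondrial genes were at slightly higher values with rapamycin in both genotypes. The median log2 fold change was 0.21 in KO and 0.19 in WT, with 12 of 13 genes above 0 in both and 13 of 13 with the copies added. In WT it was 0.23 without the library labelled WT replicate 1 and 0.31 without WT replicate 2, and in KO 0.34 without KO+R replicate 1. mt-Atp8 was at 4.8, 6.3 and 5.5 CPM in KO and 6.6, 7.2 and 9.3 CPM in KO+R, with a log2 fold change of 0.48, and at 3.9, 4.3 and 5.4 CPM in WT and 7.1 and 6.8 CPM in WT+R, with 0.61. DESeq2 with the block called it in WT+R vs WT (adjusted p = 0.0219), where its log2 fold change was 0.50 in edgeR without the library labelled WT replicate 1. That DESeq2 fit called 1408 of 14838 genes in this comparison. The mitochondrial sum was 23186, 28801 and 22827 CPM in KO+R and 16285 and 18407 CPM in WT+R. The first did not overlap with KO, and the second overlapped with WT. The nuclear median was -0.03 in KO and -0.10 in WT, and -0.04 in WT without the library labelled WT replicate 1. Leaving out WT+R replicate 1 or 2 in turn gave -0.18 and -0.042 in WT. Values lower in WT+R without overlap were found for 19 of 96 genes, against 14.7% of all tested genes, and higher ones for 5, against 14%. In KO+R, they were found for 0 and 5, against 13.2% and 10.9%. The summed mural markers were highest and the summed endothelial markers lower than in WT in the WT+R libraries, and their part in these values was not tested. In the interaction of rapamycin with the genotype, 0 of 96 genes were called, as were 0% of all tested genes, and 0 had an unadjusted p under 0.05, against 0.762%. DESeq2 also called 0 of the 96.

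Among the other genes of the pathway, Coq8a, a kinase-like protein of coenzyme Q synthesis, was the one gene called with edgeR, 1 of 15 tested coenzyme Q and cytochrome c genes, against 1.7% of all tested genes in KO+R vs KO. It rose from 4.80, 3.83 and 3.95 CPM in KO to 8.95, 8.32 and 6.19 CPM in KO+R, a log2 fold change of 0.90 (SE 0.20, adjusted p = 0.0444 with edgeR). The groups did not overlap. In WT+R it was at 8.41 and 9.62 CPM against 4.92, 4.00 and 5.09 CPM in WT (adjusted p = 0.0535 with edgeR, 0.0320 with the block). With the block, where 6.94% of all tested genes were called in KO+R vs KO and 5.78% in WT+R vs WT, 2 of these 15 genes passed in each, Coq8a in both. Coq3, a methyltransferase of coenzyme Q synthesis, rose in KO+R (log2 fold change 0.70, adjusted p = 0.0369 with edgeR and the block), and Coq7, a hydroxylase of the same route, fell in WT+R (-0.50, adjusted p = 0.0357), in the opposite direction to Coq8a. In the same fit, Pnpt1, a mitochondrial RNA-processing enzyme, fell in KO+R (-0.60, adjusted p = 0.0175) and in WT+R (-0.57, adjusted p = 0.0442), 1 of 35 tested genes of mitochondrial DNA transcription and replication. Ndufaf5 fell in KO+R (-0.71, adjusted p = 0.0313), 1 of 17 tested complex I assembly factors. Of 24 tested complex IV assembly factors, Cox18 fell in KO+R (-0.49, adjusted p = 0.0329) and Cox15 in WT+R (-0.37, adjusted p = 0.0226). Gabpa, known to bind promoters of such genes, rose in KO+R (0.34, adjusted p = 0.0411), 1 of 13 tested nuclear control factors. A motif it binds stood in 2 of 67 promoters searched, as given below. The genes called in only 1 genotype moved the same way in the other. With the block, log2 fold changes in WT+R were -0.49 for Cox18, -0.52 for Ndufaf5, 0.43 for Coq3 and 0.34 for Gabpa. In KO+R they were -0.31 for Coq7 and -0.21 for Cox15. The interaction of rapamycin with the genotype was not called for these genes. Cytochrome c (Cycs) was called in no comparison.

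The promoters of the nuclear genes were searched for 3 motifs on both strands, from 250 bases before to 50 after the start (RefSeq, GRCm38.p6). Of the 83 tested nuclear genes, 67 matched an entry. The NRF1 core (GCGCA, then any base, then GCGC) stood in 17 of these 67 (25.4%) and in 5.19% of the 27025 genes with a promoter in the table. The YY1 core AAGATGGCG stood in 7 of 67 (10.4%), against 1.64%, and the ETS core CCGGAAGTG, bound by Gabpa, in 2 of 67 (2.99%), against 2.25%. The 27025 genes include genes not tested here and were not matched to the members for base composition or level. Whether these shares are particular to the system was not tested. The last 120 bases before the start are shown for Sdha, as an example with the NRF1 core (capitals), and for Cox7a2l and Ndufs8, the members called with the block under rapamycin in both genotypes, where no motif was matched. Sdha is at chr13:74350241-74350360, Cox7a2l at chr17:83514334-83514453 and Ndufs8 at chr19:3912775-3912894, all on the minus strand of GRCm38.p6 and written 5′ to 3′ along the gene.
Sdha: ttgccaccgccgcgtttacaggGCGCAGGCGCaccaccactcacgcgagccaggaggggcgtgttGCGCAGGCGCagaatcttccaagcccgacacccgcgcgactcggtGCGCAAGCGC
Cox7a2l: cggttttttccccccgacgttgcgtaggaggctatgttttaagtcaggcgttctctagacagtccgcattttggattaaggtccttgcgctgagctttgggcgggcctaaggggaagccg
Ndufs8: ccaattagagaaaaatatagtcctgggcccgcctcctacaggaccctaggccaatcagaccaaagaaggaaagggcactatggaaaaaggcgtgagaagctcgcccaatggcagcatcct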

How the data were processed

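Per the labels, poly(A) RNA of 16 mBMEC cultures was sequenced with unstranded paired-end libraries. The authors deposited, per transcript, expected counts, TPM and effective lengths in Salmon format. The submitters' processing notes name Salmon 1.5.2 and GRCm39, whereas STAR and HTSeq appear in the published methods. Per gene, the expected counts of its transcripts were added up (GENCODE vM39; 99.12% of 140789 transcripts matched) and rounded. TPM was used to compare genes and for marker sums. No deposited column lacked a sample (0 columns).

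Genes were tested with edgeR 4.0.16 (R 4.3.3; TMM, filterByExpr, quasi-likelihood) in 1 model of 6 groups, with 10 residual degrees of freedom and Benjamini-Hochberg adjustment over 14838 genes, checked on simulated data. SE is the log2 fold change divided by the root of F. Variation between cultures (edgeR's biological coefficient) came to 32.3%, or 19% with the block. DESeq2 1.42.0 was an alternative. Same-numbered libraries of compared groups correlated at 0.189 to 0.693 in their deviations from group means, so the numbers paired them; the pairing comes from the values. Copies were found among annotated transcripts with blastn 2.17.0 (at least 95% identity over 100 bases and 50% of the member's transcript). The genes and lists were chosen with earlier results of these data known. Named were, per comparison, the 3 members with the smallest p and any called, the mitochondrial genes, isoforms, core subunits, called pathway genes, Ppargc1a, Tfam, Polrmt and Cycs; Uqcrb, Ndufs8, Ndufb4 and the pathway genes called only with the block were named after their values were seen. Replicates are separate cultures per the paper. One member is not reported by name here.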

Additional observations from a re-analysis of the deposited data

Results flagged for a closer look

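Within the same replicate number, the change of the summed nuclear complex I level with propranolol was positive in KO and negative in WT. The log2 change was 0.013, 0.050 and 0.020 in KO+P vs KO and -0.46 and -0.028 in WT+P vs WT. The largest change, -0.46, came from replicate 1 in WT, whose untreated library has a Pdcd10 level against its label. The remaining changes were at most 0.050 in size. The difference was not tested for the sum.

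The summed nuclear complex IV level had the same signs with rapamycin. The log2 changes were 0.18, 0.034 and 0.015 in KO+R vs KO and -0.11 and -0.032 in WT+R vs WT. In both genotypes the largest change was that of replicate 1. This difference was not tested either. For single genes the interaction was tested in the edgeR model and called none of the 96.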

How the results depend on the processing

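Of 1122 values recomputed under alternatives, 1070 kept their direction and side of the threshold, or moved by less than the spread. Counts of called members changed as follows, and the cause was not tested. DESeq2 called 1 in KO+R vs KO and 1 in WT+R vs WT (Cox7a2l in both), and edgeR without a filter on low counts called 1 in WT+R vs WT. Over all genes, DESeq2 called 632 and 679 of 14838, and edgeR without the filter called 263 of 27228 in WT+R vs WT. The replicate block called 3 in KO+R vs KO and 3 in WT+R vs WT, the same with the copies added, and 3 and 1 without the WT culture 1 library, whose Pdcd10 level goes against its label. Over all genes, the block called 1030 and 858 of 14838, and 990 and 438 of 14831 without that library. DESeq2 with the replicate block, added after seeing the data, called 1 in KO vs WT, 2 in KO+P vs KO, 4 in KO+R vs KO, 4 in WT+R vs WT, 2 in KO+P vs WT+P and 1 in KO+R vs WT+R. Of all 14838 tested genes, it called 566, 1439, 1763, 1408, 405 and 375 in the same order. The block changed no other count in edgeR. Leaving out 1 library gave 0 to 1 in KO+P vs KO (Uqcrq, without KO+P replicate 3) and 0 to 1 in WT+P vs WT (Atp5if1, without WT+P replicate 2, where the lone library is assumed to vary like the others). The mitochondrial median ran from 0.16 to 0.34 in KO+R vs KO and from -0.21 to 0.22 in the propranolol interaction, the ends being reached without KO+R replicate 2 and KO+R replicate 1 in the first and without WT+P replicate 1 and WT+P replicate 2 in the second. The nuclear median in KO+R vs KO ran from -0.15 to 0.06.

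The value of mt-Co3 in KO vs WT reversed to 0.33 with the copies added (0.33 with the block) and to 0.074 with the block without WT culture 1, and leaving out 1 library gave -0.21 to 0.063. mt-Atp6 reversed to 0.29 (0.29 with the block). Atp5mc2 in KO+P vs KO reversed to 0.041 (0.042 with the block). Cox7a1 in the rapamycin interaction ran from -1.94 to 0.11, with at most 21 counts. Depth limits the genes with few counts, such as Cox6a2, Cox6b2 and Cox7a1, and the near copies limit mt-Co2, mt-Atp6, mt-Co3, mt-Nd3 and Atp5mc2. Cox7c, Atp5mg and Atp5pd share sequence with transcripts of other protein-coding genes (Pitpna, Mob4 and Rpl37). In addition, 12 tested members share over 25% of their exonic bases with other genes. What part this had in their values was not tested.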
